A study of Homo sapiens with 2 samples.

Results

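Ribosomal protein pseudogenes are copies of the genes that encode the proteins of the ribosome, and 162 of the 18781 genes in the deposited table were such copies. They were chosen by name, as RPL or RPS followed by the name of a parent gene, a P and a number, so that RPL41P1 is a copy of RPL41. Of these pseudogenes, 107 are copies of genes of the large ribosomal subunit and 55 of genes of the small subunit, and together they come from 52 parent genes, all of which are also in the table. IMP1 is an RNA-binding protein that regulates the localization and translation of mRNAs, and the study looked for the long non-coding RNAs bound to it in T47D, an established line of luminal breast cancer cells. Cell lysate was incubated with protein A beads that carried either an antibody against IMP1 or normal IgG, and the RNA left on the washed beads was sequenced (RIP-seq, RNA immunoprecipitation followed by RNA sequencing). There were 2 libraries, 1 with the IMP1 antibody and 1 with IgG, both from wild-type T47D cells, without any further treatment in the labels. With 1 library per condition, none of the differences below could be checked against replicates.

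Most ribosomal protein pseudogenes are processed pseudogenes, which arise when a messenger RNA is copied back into DNA and inserted elsewhere in the genome, usually without introns and without a promoter of its own. Ribosomal protein mRNAs are among the most abundant and shortest mRNAs of the cell, and they have left more such copies in the human genome than almost any other group of genes. A copy can be nearly identical to its parent, so that a sequencing read from the parent mRNA can match both. How the authors' counting treated reads that match several places is not given in the sources used here. For each pseudogene, RNA made from the copy and reads assigned to it from the parent mRNA therefore cannot be told apart, and every value of a single copy is uncertain to that extent.

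Values are FPKM, fragments scaled by the length of the transcript and by the size of the library. The libraries were compared through the log2 ratio, in which 0.1 was added to the FPKM with the IMP1 antibody and with IgG before division. On this scale changes of low genes come out too small, and a gene listed at 0 in a library still has a ratio. The FPKM values summed to 353885 with the IMP1 antibody, and in the IgG library the sum was 3.67 times as high, and the depth of the libraries is unknown. The highest value of a gene was 97004 FPKM with the IMP1 antibody and 395449 FPKM with IgG. In each library 1 gene thus held a large part of the sum. Shares of the sum, and the rescaling to the same sum used below, depend on such genes. The cell line was checked against its markers. All 12 luminal epithelial markers are in the table, of which 11 with the IMP1 antibody and 10 with IgG had at least 1 FPKM, and their summed FPKM was 1269 and 571, with TFF1 and TFF3 listed at 0 with IgG. Markers of mesenchymal cells, which T47D cells should lack, summed to 2.61 with the IMP1 antibody (3 of 7 listed at 0) and to 169.9 with IgG (0 of 7 at 0). Of 5 blood cell markers 2 are in the table, with a sum of 6.42 with the IMP1 antibody and 322 with IgG. The part that RNA of other cells played in the results below was not tested.

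More of the pseudogenes were detected with the IMP1 antibody than with IgG, and most of those detected only there were very low. A value above 0 was listed for 142 of the 162 with the IMP1 antibody and for 73 with IgG, against 91.8% and 60.1% of all genes. Both libraries listed 54 of them (33.3%) above 0, 88 (54.3%) were above 0 only with the IMP1 antibody and 19 (11.7%) only with IgG, against 53.5%, 38.3% and 6.58% of all genes. RPL39P5 was at 0 in both. The median of the values above 0 was 0.465 FPKM with the IMP1 antibody and 2.16 FPKM with IgG, over different sets of copies, beside 1.40 and 4.81 FPKM over all genes. At 10 FPKM or more there were 12 pseudogenes (7.41%) with the IMP1 antibody and 13 (8.02%) with IgG, against 11.7% and 19.8% of all genes.

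**Figure D1:**
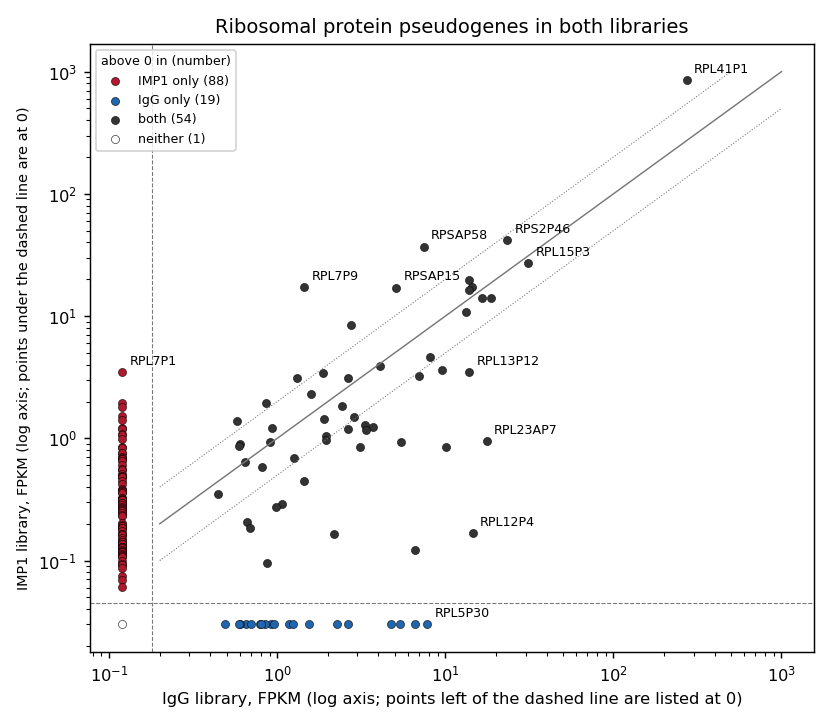
FPKM of each of the 162 ribosomal protein pseudogenes with IgG (x axis, log) and with the IMP1 antibody (y axis, log); 1 point is 1 pseudogene, points beyond the dashed lines are listed at 0 in that library, the solid line marks equal values and the dotted lines a 2-fold difference. The 88 red points, above 0 only with the IMP1 antibody, lie between 0.0607 and 3.46 FPKM, and RPL41P1 stands far above all others in both libraries.

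Counted past 2-fold, 89 of the 162 pseudogenes (54.9%) were higher with the IMP1 antibody and 39 (24.1%) were lower, against 39.9% and 29.9% of all genes. The median log2 ratio was 1.13, against 0.40 over all genes. Among the 89 higher pseudogenes, 81 were listed at 0 with IgG, and all 19 that were above 0 only with IgG counted as lower. Among the 54 above 0 in both libraries the count went the other way, with 8 higher and 20 lower and a median log2 ratio of -0.39, but this direction turned when the IMP1 values were rescaled to the median gene (17 higher, 9 lower, median 0.37) or to the same sum over all genes (30 higher, 6 lower, median 1.39). Of all genes above 0 in both, 16.9% were higher and 44.6% lower as deposited, and their median was -0.77. Rescaling moves all genes: to the median gene it put 49.3% of all genes higher and 21.3% lower, and to the same sum 63.7% and 13.0%. As deposited, the direction for the group thus rested on copies that were above 0 in 1 library only. Higher copies were 69.5% of those past 2-fold as deposited and 78.9% and 82.5% under these rescalings, beside 57.2%, 69.9% and 83.1% of all genes past 2-fold.

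The highest pseudogene in both libraries was RPL41P1, a copy of RPL41, which encodes the smallest protein of the large subunit. RPL41P1 (ENSG00000227063) had 854 FPKM with the IMP1 antibody and 273 FPKM with IgG, and its log2 ratio was 1.64. It lies at chr20:21735866-21736171 (hg19), where no other listed gene overlaps it. RPL41 itself had 1891 and 821 FPKM, a log2 ratio of 1.20. RPL41P1 thus stood at 45.1% of its parent with the IMP1 antibody and at 33.3% with IgG, the highest share of any of the pseudogenes in either library. The second copy, RPL41P2, within HERC2 on chromosome 15, had 8.48 and 2.74 FPKM, a log2 ratio of 1.60. RPL41 and both its copies were higher with the IMP1 antibody.

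RPL41P1 alone made up 71.7% of the summed FPKM of all the pseudogenes with the IMP1 antibody and 43.9% with IgG. The sum was 1191 FPKM with the IMP1 antibody and 623 FPKM with IgG, for a log2 ratio of 0.94. Without RPL41P1 it was 337 FPKM and 350 FPKM, a log2 ratio of -0.05, whose sign turns when the IMP1 values are rescaled to the median gene (0.74) or to the same sum (1.82). The 10 highest pseudogenes held 89.1% of the sum with the IMP1 antibody and 70.2% with IgG, and 6 pseudogenes were among the 10 highest in both libraries. As a share of the FPKM of all genes, the pseudogenes made up 0.337% with the IMP1 antibody and 0.048% with IgG. Without RPL41P1 these shares were 0.0953% and 0.0269%. The ribosomal protein genes made up 7.95% and 2.25%. All these shares depend on the sum over all genes, of which 1 gene held a large part in each library.

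Copies of the small-subunit genes RPS2, RPSA and RPS26 held 6 of the 10 highest places with the IMP1 antibody and 3 of 10 with IgG. RPS2P46, on chromosome 17, had 41.8 FPKM with the IMP1 antibody and 23.4 FPKM with IgG. RPS2P5, within TAOK3 on chromosome 12, had 19.7 and 13.8 FPKM. Both were somewhat higher with the IMP1 antibody, by log2 ratios of 0.83 and 0.52, beside 0.29 for their parent RPS2, a protein at the mRNA entry side of the small subunit. RPS26P8 had 17.3 FPKM with the IMP1 antibody and 14.5 with IgG. RPS26P6 had 16.3 and 13.9 FPKM. These copies of RPS26, which encodes a protein near the mRNA exit channel, differed by log2 ratios of 0.25 and 0.23, as their parent did by 0.09.

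RPSA encodes a small-subunit protein also known as the laminin receptor. Among the copies named after it, the 2 highest had larger log2 ratios than their parent. RPSAP58 had 37.0 FPKM with the IMP1 antibody and 7.45 with IgG, a log2 ratio of 2.30. RefSeq now lists this gene as protein coding under the symbol RPSA2, the only 1 of the 162 with that class. RPSAP15, on chromosome X, had 17.1 and 5.10 FPKM, a log2 ratio of 1.73. RPSA had 194 and 108 FPKM, a log2 ratio of 0.84, so that RPSAP58 was at 6.88% of its parent with IgG and at 19.0% with the IMP1 antibody. Of the 8 copies of the family as a whole, 4 were at least 2-fold higher and 2 lower, beside 39.9% and 29.9% of all genes. RPSAP47 was listed at 0 with the IMP1 antibody and at 2.64 FPKM with IgG, and RPSAP6 had 0.0952 and 0.872 FPKM. The remaining 4 copies were above 0 only with the IMP1 antibody, at no more than 0.372 FPKM. The 8 copies of RPSA known only by their description summed to 7.58 and 14.1 FPKM, a direction that turns when rescaled to the same sum, and 3 of them were higher and 2 lower.

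The widest gap between libraries among pseudogenes that reached 1 FPKM in both was that of RPL7P9, a copy of RPL7, which encodes a protein of the large subunit. RPL7P9 (ENSG00000137970, chr1:97144430-97145176, hg19) had 17.2 FPKM with the IMP1 antibody and 1.45 FPKM with IgG, and the log2 ratio was 3.49. RPL7 had 395 and 357 FPKM, a log2 ratio of 0.15. The copy was at 4.36% of its parent with the IMP1 antibody and at 0.405% with IgG. Another copy of RPL7, RPL7P1, within CSF1R on chromosome 5, had the highest value of any pseudogene listed at 0 with IgG, 3.46 FPKM. A further copy, RPL7P21, within NR3C1, had 0.163 FPKM with the IMP1 antibody and 2.16 FPKM with IgG, so copies of the same parent were found on both sides.

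Several copies of large-subunit genes had FPKM values within 1.5 times of each other in the 2 libraries as deposited. RPL15P3 had 27.2 FPKM with the IMP1 antibody and 31.1 with IgG. RPL18AP3, within TXNRD1, had 14.1 and 16.6 FPKM. RPL39P3, within OOEP, had 14.0 and 18.6 FPKM. Their log2 ratios of -0.19, -0.24 and -0.41 lay above the median of -0.78 over all 6909 genes that reached 1 FPKM in both. They turn positive when rescaled to the median gene (0.60, 0.56 and 0.38) or to the same sum (1.68, 1.63 and 1.46). TXNRD1, the listed gene whose locus holds RPL18AP3, had 5.01 and 23.9 FPKM, so the copy exceeded it with the IMP1 antibody and not with IgG.

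Other copies were high with IgG and low with the IMP1 antibody. RPL12P4 (ENSG00000185834, chr20:53691155-53691685, hg19) had 0.167 FPKM with the IMP1 antibody and 14.5 FPKM with IgG, and the log2 ratio was -5.78. Its parent RPL12, a protein of the ribosomal stalk base, had 357 and 1372 FPKM, a log2 ratio of -1.94 and the lowest of the 52 parents. RPL23AP7, annotated as a transcribed pseudogene on chromosome 2, had 0.950 and 17.7 FPKM, a log2 ratio of -4.08. Its parent RPL23A, which lies at the exit of the peptide tunnel, had 489 and 606 FPKM. RPL13P12 had 3.46 FPKM with the IMP1 antibody and 13.9 with IgG, a log2 ratio of -1.98, and was the lowest ratio among pseudogenes with at least 1 FPKM in both. RPL21P119 (1.24 and 3.71 FPKM), RPL24P4 (1.17 and 3.36), RPS23P8 (3.63 and 9.53) and RPL14P1 (1.29 and 3.33) completed the 5 lowest ratios, from -1.51 to -1.30. When the IMP1 values are rescaled to the same sum over all genes, these 4 ratios turn positive, while that of RPL13P12 does not.

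**Figure D2:**
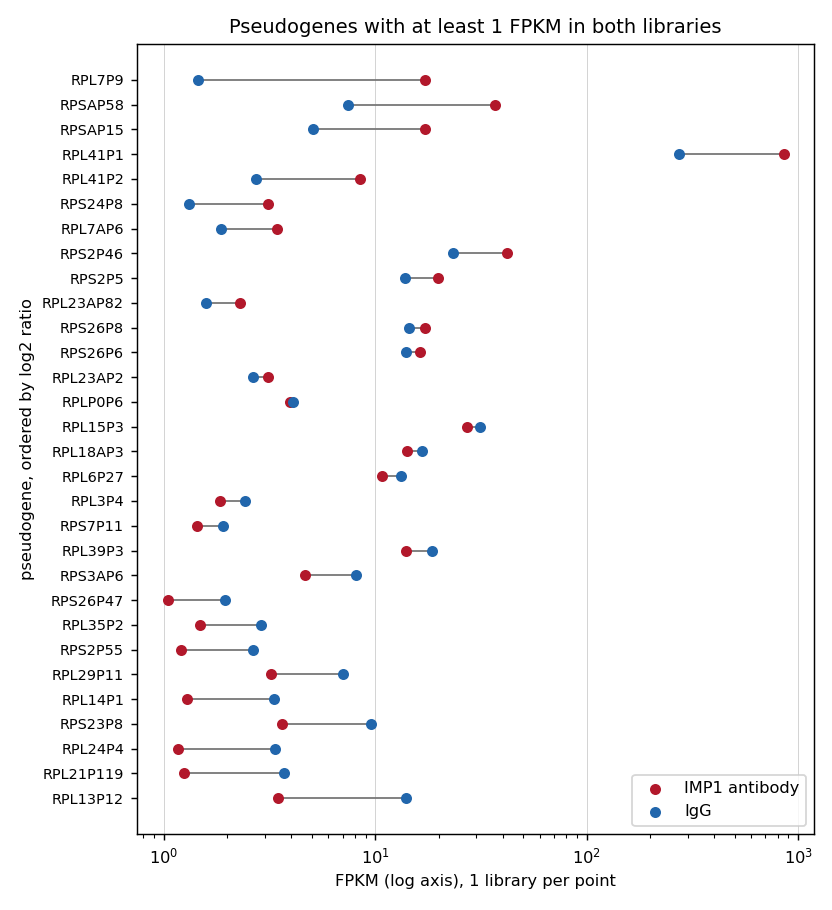
FPKM (log axis) of the 30 ribosomal protein pseudogenes that reached 1 FPKM in both libraries, ordered by log2 ratio; red points are the IMP1 antibody library, blue points the IgG library, and the line joins both values of 1 pseudogene. As deposited, 6 are at least 2-fold higher with the IMP1 antibody and 7 at least 2-fold lower, beside 11.5% and 44.0% of all genes at this level. After rescaling to the median gene these are 12 and 1, beside 25.0% and 24.9%. After rescaling to the same sum they are 21 and 0, beside 51.6% and 7.96%.

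Of the 30 pseudogenes that reached 1 FPKM in both, 6 (RPL7P9, RPSAP58, RPSAP15, RPL41P1, RPL41P2 and RPS24P8) were at least 2-fold higher and 7 at least 2-fold lower, beside 11.5% and 44% of all such genes. Their median log2 ratio was -0.21, against -0.78 for all such genes and 0.06 for the 52 parents. The scaling matters here. Bringing the median ratio of the genes that reach this level in both libraries to 1 is a log2 shift of 0.79, and giving both libraries the same sum is a shift of 1.88. The median of the 30 then becomes 0.58 or 1.65, beside 0 or 1.06 for all such genes. The median of the 30 stood above that of all genes at this level. A rescaling moves both medians nearly alike, so it cannot test this order.

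Of the pseudogenes above 0 only with the IMP1 antibody, 79 of 88 were under 1 FPKM and the median was 0.270 FPKM. The highest after RPL7P1 were RPL32P29 (1.96 FPKM), RPL35P5 (1.81), RPS26P15 (1.53, within DAB1) and RPS15AP1 (1.41, within KIZ). The locus given for RPL32P29 also spans RN7SL1, a small RNA of the signal recognition particle with very high values, and RPS29. Those above 0 only with IgG were higher as deposited, with a median of 0.958 FPKM and a range of 0.486 to 7.79 FPKM. This order of the medians does not hold when the IMP1 values are rescaled to the same sum over all genes. RPL5P30, within IFT46 on chromosome 11, was the highest of them at 7.79 FPKM. It was followed by RPS27P29 at 6.56 FPKM, RPL13P5 at 5.39 FPKM and RPL23AP4 at 4.72 FPKM. All of these were listed at 0 with the IMP1 antibody. The loci given for RPL5P30, RPL13P5 and RPS27P29 are shared with other listed genes, which reached 56.2, 15.3 and 3.25 FPKM with IgG. Another copy of RPL23A, known only by its description, had nearly the same values as RPL23AP4, 0 and 4.72 FPKM.

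The lowest value listed above 0 differed between the libraries. Multiplied by the RefSeq length in kilobases, for the 154 pseudogenes of at most 2000 bases, the lowest value above 0 was 0.0623 with the IMP1 antibody and 0.280 with IgG, or 4.49 times as high. Of the 85 such pseudogenes above 0 only with the IMP1 antibody, 61 lay under the lowest IgG value and 24 at or above it. The 19 above 0 only with IgG could not lie under the lowest IMP1 value, because the lowest IgG value is itself above it. The lowest listed value is not a measured detection limit, and its part in the counts of copies at 0 was not tested.

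Detection followed the level in the other library. Of the pseudogenes under 0.2 FPKM with the IMP1 antibody, 36 of 41 (87.8%) were listed at 0 with IgG, and of all genes at that level 78.8% were. At 1 to 3 FPKM these were 8 of 20 (40%) and 33.6%, at 3 to 10 FPKM 1 of 10 and 17.3%, and at 10 FPKM or more 0 of 12 and 5.37%. In the other direction, 9 of 21 (42.9%) of the pseudogenes with 0.5 to 1 FPKM with IgG were listed at 0 with the IMP1 antibody, beside 24.4% of all genes. At 3 to 10 FPKM with IgG these were 4 of 16 (25%) and 5.41%. Other pseudogenes named after a listed gene had 20.6% at that level.

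**Figure D3:**
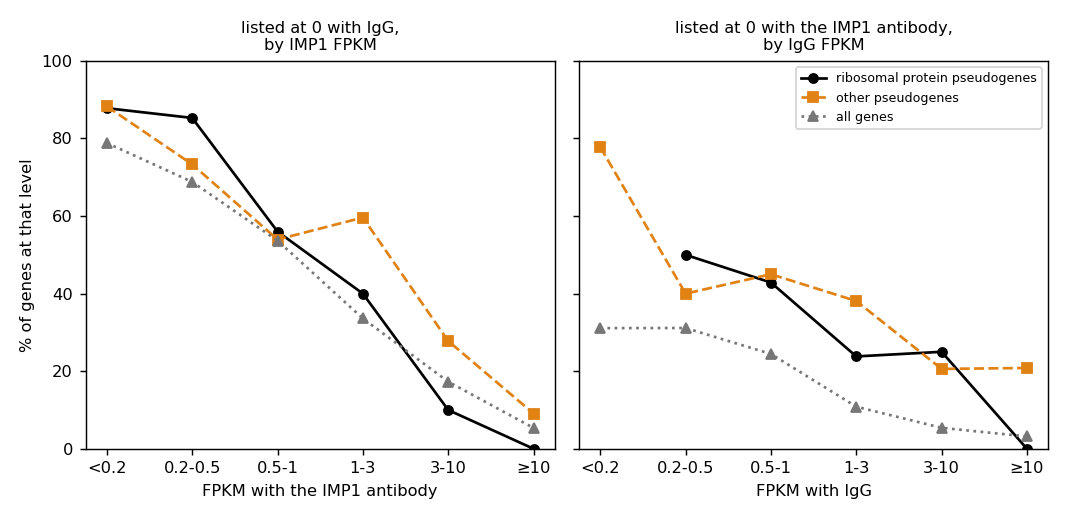
Percentage of genes listed at 0 with IgG by their FPKM with the IMP1 antibody (left), and listed at 0 with the IMP1 antibody by their FPKM with IgG (right); circles are ribosomal protein pseudogenes, squares other pseudogenes and triangles all genes. On the left the pseudogenes fall from 87.8% under 0.2 FPKM to 0 of 12 at 10 FPKM or more, as all genes fall from 78.8% to 5.37%; no pseudogene lies under 0.2 FPKM with IgG.

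Beside their parents, the pseudogenes were low in both libraries. No pseudogene exceeded its parent (0 in each library). Among those above 0, the median share of the parent's FPKM was 0.164% with the IMP1 antibody and 0.662% with IgG. A share of at least 5% was reached by 8 pseudogenes with the IMP1 antibody and by 12 with IgG. The parents ranged from 88.3 FPKM (RPL5) to 1891 FPKM (RPL41) with the IMP1 antibody and from 28.0 FPKM (RPL3) to 1372 FPKM (RPL12) with IgG. Their log2 ratios ran from -1.94 to 2.89 with a median of 0.06, and 4 were at least 2-fold higher and 3 at least 2-fold lower. These became 22 and 1 with a median of 0.86 when rescaled to the median gene, and 47 and 0 with a median of 1.94 when rescaled to the same sum. Of all genes with at least 1 FPKM in both, 11.5% were higher and 44.0% lower as deposited. Under these rescalings the shares were 25.0% and 24.9%, and 51.6% and 7.96%. The wider list of 79 ribosomal protein genes had a median of -0.02, with 8 higher and 4 lower.

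Across the 162 pseudogenes the log2 ratio was above that of the parent for 105 and below it for 57, with a median difference of 0.54. Among the 54 above 0 in both libraries it was above for 20 and below for 34, with a median difference of -0.50. Among the 30 with at least 1 FPKM in both it was above for 14 and below for 16, with a median difference of -0.04. For 21 of these 30 the copy lay within a log2 difference of 1 from its parent. Rescaling shifts a copy and its parent together, apart from the effect of the added 0.1 on low copies. For these 30 the ratios of copy and parent had a Spearman rho of 0.55 and a Pearson r of 0.37. This is across pseudogenes of the same 2 libraries, some of which share a parent, and reads matching both genes would enter both values.

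**Figure D4:**
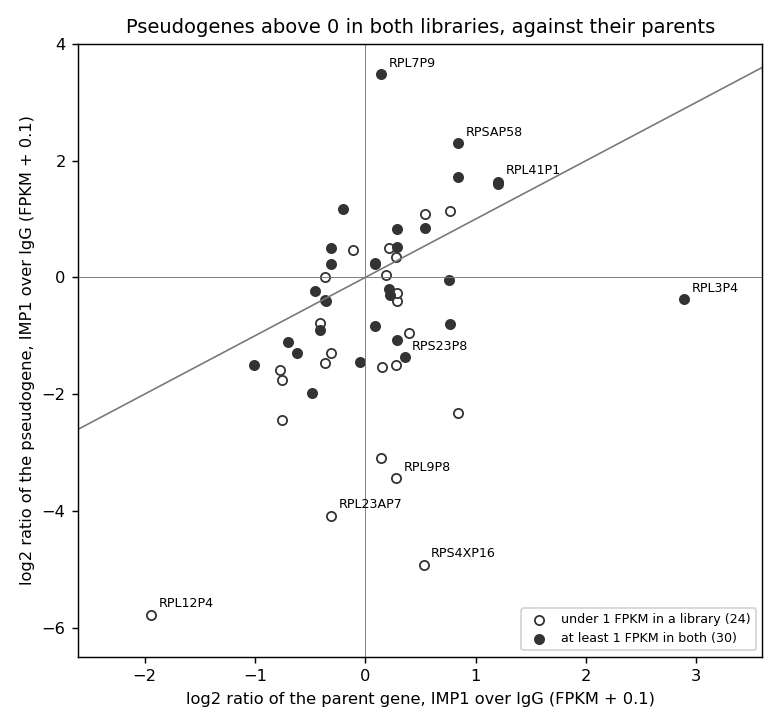
Log2 ratio (IMP1 antibody over IgG, FPKM + 0.1) of the 54 ribosomal protein pseudogenes above 0 in both libraries (y axis) against that of their parent (x axis); filled points reached 1 FPKM in both libraries, and the line marks equal ratios. RPL7P9 lies 3.34 above its parent and RPL3P4 differs from its parent by -3.26, while 21 of the 30 filled points lie within 1 of the line.

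At this level 3 copies, RPL7P9, RPSAP58 and RPS24P8, were at least 1 above the parent on the log2 scale. A further 6 were at least 1 below it, namely RPL3P4, RPS23P8, RPS3AP6, RPL13P12, RPL24P4 and RPS2P55. RPS24P8 had 3.10 FPKM with the IMP1 antibody and 1.31 FPKM with IgG, while RPS24, the parent, was at 949 and 1094 FPKM. RPL3P4 was the furthest below. It had 1.85 FPKM with the IMP1 antibody and 2.42 with IgG, whereas RPL3, which encodes a protein near the peptidyl transferase centre, had 208 and 28.0 FPKM. RPL3 had the largest log2 ratio of the 52 parents, 2.89. Of its 6 copies, 5 were listed at 0 with IgG, the highest being RPL3P2 with 0.759 FPKM with the IMP1 antibody. Of the 6 copies, 3 were at least 2-fold higher, beside 39.9% of all genes. RPL3P4 was at 0.886% of RPL3 with the IMP1 antibody and at 8.65% with IgG. Under 1 FPKM with the IMP1 antibody lay some wider departures. RPS4XP16 had 0.122 and 6.63 FPKM, beside 97.2 and 67.3 for RPS4X. RPL9P8, within UBE2Q2P2, had 0.842 and 10.1 FPKM, beside 161 and 133 for RPL9. RPS24P8, RPL3P4, RPS2P55, RPS4XP16 and RPL9P8 were singled out after their values were seen.

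Taken by parent, the largest families were those of RPS2, RPSA, RPL7, RPS3A and RPL5, with 8 listed copies each. The copies of RPS2 summed to 64.1 FPKM with the IMP1 antibody and 41.1 FPKM with IgG, or 10.8% and 8.48% of RPS2. Here 8 were above 0 with the IMP1 antibody and 5 with IgG, and 2 copies, RPS2P46 and RPS2P5, held nearly all of the sum. The copies of RPSA summed to 55.0 and 16.1 FPKM, or 28.3% and 14.8% of RPSA. Without RPSAP58 they summed to 17.96 and 8.61 FPKM, or 9.24% and 7.95%. Those of RPL7 summed to 22.2 and 5.05 FPKM, or 5.62% and 1.41% of RPL7. By count 5 were higher and 3 lower, beside 39.9% and 29.9% of all genes. Without RPL7P9 the copies of RPL7 summed to 4.98 and 3.603 FPKM, or 1.26% and 1.01%. These 3 families had higher sums with the IMP1 antibody, each with a log2 ratio above that of the parent.

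The families of RPS3A and RPL5 had the higher sum with IgG as deposited, by log2 ratios of -0.29 and -3.17, of which that of RPS3A turns positive when rescaled to the median gene (0.50) or to the same sum (1.58). The copies of RPS3A, which encodes a protein of the small subunit, summed to 7.08 FPKM with the IMP1 antibody and 8.66 FPKM with IgG, although RPS3A itself was at 175 and 103 FPKM. By count, 7 of the 8 were at least 2-fold higher, 6 of them at most 0.310 FPKM with the IMP1 antibody and listed at 0 with IgG. Of all genes, 39.9% were higher and 29.9% lower. The sum was set by RPS3AP6, with 4.63 and 8.09 FPKM, and without it the log2 ratio of the sums was 2.10. The copies of RPL5, which binds the 5S ribosomal RNA, summed to 1.05 and 9.45 FPKM, or 1.19% and 6.27% of RPL5. Here too the count (5 higher, 3 lower) and the sum point in opposite directions, since RPL5P30 alone gave 7.79 FPKM with IgG and the 6 copies above 0 with the IMP1 antibody reached at most 0.291 FPKM. Without RPL5P30 the log2 ratio of the sums was -0.66, which turns positive under either rescaling. These sums without the dominant copy were chosen after seeing the data.

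**Figure D5:**
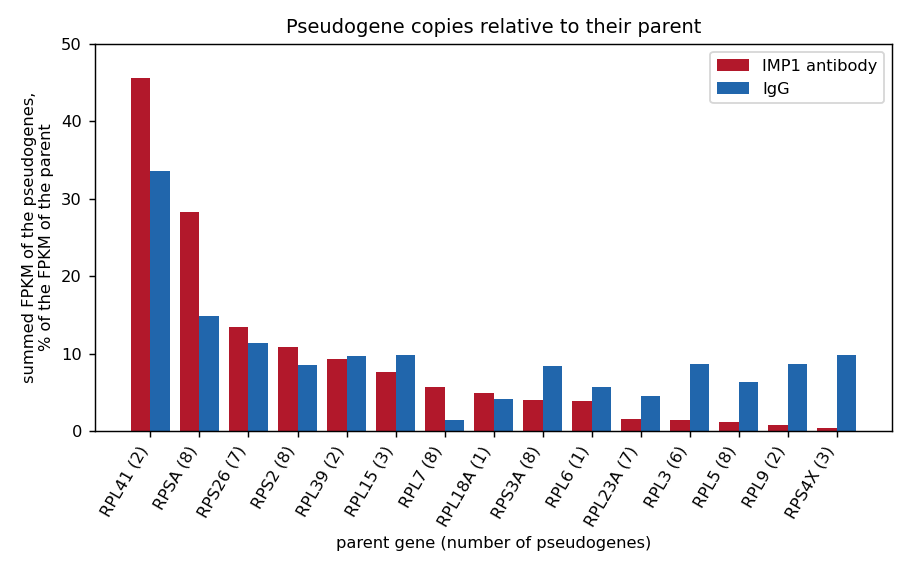
Summed FPKM of the ribosomal protein pseudogenes of each parent as a percentage of the FPKM of that parent, with the IMP1 antibody (red) and with IgG (blue), for the parents where it reached 4% in a library; the number of pseudogenes is in parentheses. The copies of RPL41 reach 45.6% and 33.6%, and those of RPSA 28.3% and 14.8%. Those of RPL3, RPL5, RPL9, RPS4X, RPS3A, RPL23A, RPL15, RPL6 and RPL39 are higher with IgG.

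Of the 52 families, 35 had a sum above 0 in both libraries, and the log2 ratio of the sum was above that of the parent for 12 of them and below it for 23. The sum was under 1% of the parent for 34 families with the IMP1 antibody and for 26 with IgG. If the FPKM of the copies is added to that of the parent, the parent's log2 ratio moves by -0.13 (RPS4X) to 0.16 (RPSA), and by at least 0.1 in either direction for 4 parents.

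Names alone do not hold every such copy. A further 33 listed genes are called ribosomal protein pseudogenes only in the authors' description column, among them 11 copies of RPL12 and 8 each of RPL23A and RPSA. Of these 33, 10 (30.3%) were higher and 17 (51.5%) lower, beside 39.9% and 29.9% of all genes and 54.9% and 24.1% of the named copies. Their median log2 ratio was -1.07. They summed to 51.8 FPKM with the IMP1 antibody and 127 FPKM with IgG, and the log2 ratio of -1.29 turns to 0.58 when rescaled to the same sum (14 higher, 11 lower). Under that rescaling 63.7% of all genes were higher and 13.0% lower. The highest of the 33 was a copy of RPL23A with 34.2 and 71.7 FPKM. Of the 17 copies of RPL12 by name or description, 12 were lower and 4 higher, where 29.9% of all genes were lower and 39.9% higher. They summed to 2.70 FPKM with the IMP1 antibody and 33.5 FPKM with IgG, for a log2 ratio of -3.63, beside -1.94 for RPL12 itself. With these 33 added to the 162, 99 were higher and 56 lower.

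The counts were also taken by position and class. The stated locus overlapped no other listed gene for 97 pseudogenes, and for 65 it was shared with another listed gene. The table gives merged regions for overlapping genes, so the position of a copy is known only to within its region. For 18 of the 97 the region was also longer than 2000 bases. Among the 97, 53.6% were higher and 21.6% lower, and among the 65, 56.9% and 27.7%. By RefSeq, 74 lie within another gene, of which 58.1% were higher and 24.3% lower. Large-subunit copies (60 of 107 higher, 28 lower) and small-subunit copies (29 of 55 higher, 11 lower) had medians of 1.14 and 1.12, which rest on copies listed at 0 in a library. For those above 0 in both, the medians were -0.78 and -0.27, and for those that reached 1 FPKM in both -0.27 and 0.24, and the negative ones turn positive when rescaled to the same sum. Of the 14 copies that RefSeq classes as transcribed, 10 were higher and 3 lower, beside 39.9% and 29.9% of all genes. The 10 were listed at 0 with IgG, while the sum of the 14 was 8.996 FPKM with the IMP1 antibody and 25.3 FPKM with IgG, a direction that turns when rescaled to the same sum.

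Compared with the 598 other listed pseudogenes named after a listed gene, the ribosomal protein copies had the higher median ratio as deposited. Of the 598, 240 (40.1%) were higher and 158 (26.4%) lower, with a median log2 ratio of 0.76, and 507 were above 0 with the IMP1 antibody and 224 with IgG. For the 37 of them that reached 1 FPKM in both, the median was -0.63, beside -0.21 for the ribosomal protein copies. Without the copies of RN7SK, a small nuclear RNA, 24 remained at this level and their median was -0.29. No test of these differences between the groups was possible with 1 library per condition.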

How the data were processed

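RNA from 1 IMP1 antibody and 1 IgG precipitate of T47D cells was sequenced. The authors deposited FPKM values per gene with hg19 loci. Aligner, quantification software, annotation, strandedness and the treatment of multiply matching reads are not given in the sources used here. Zeros are written as 1e-05, and values at or under that (346 with the IMP1 antibody and 228 with IgG lay under it) were set to 0. Locus starts count from 0, so 1 was added. The deposited fold change, p-value and q-value columns hold the authors' own comparison and were not used.

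Log2 ratios of FPKM + 0.1 were computed, and genes past 2-fold counted. With 1 library per group no test was run. Members and lists (parents, 79 ribosomal protein genes, their paralogs, other pseudogenes, cell markers) were chosen with earlier results of these data known. Named pseudogenes are the 10 highest per library, the 5 largest and 5 smallest ratios among those with at least 1 FPKM in both, the 5 highest per library listed at 0 in the other, and the families of the 5 parents with most copies. Class, length and neighbours came from RefSeq, matched by symbol or synonym for 162 of 162. Whether a copy lies within another RefSeq gene was read from RefSeq's own coordinates. These are of another build and were not compared with the hg19 loci. No sequences are printed. Alternatives were other pseudocounts (1 and 0.01), filters, a 4-fold threshold, rescalings, leaving out overlapping copies or the highest copy, and 1 value per parent. The counting was run on simulated data for this comparison with 18781 genes, where 100% of 200 genes changed 4-fold and 8-fold came back as changed. Both simulated libraries were the same profile without noise, and only genes with a mean of at least 1 FPKM were changed. The outcome was therefore fixed by construction. It checks the arithmetic only and says nothing about low copies or copies listed at 0. The tools were Python 3.11.15, numpy 2.4.6, pandas 2.3.3 and matplotlib 3.10.9.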

Additional observations from a re-analysis of the deposited data

How the results depend on the processing

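The count of pseudogenes at least 2-fold higher (89) was 14 with a pseudocount of 1, 31 among those that reached 0.5 FPKM in either, 8 among those above 0 in both, 42 at 4-fold and 52 without copies that overlap a listed gene. The count lower (39) was 20 with a pseudocount of 1, 20 among those above 0 in both, 25 after rescaling to the same sum and 21 without overlapping copies. The median log2 ratio (1.13) was 0.19 with a pseudocount of 1, 3.55 with 0.01 and 2.50 after rescaling to the same sum. It turned negative among those that reached 0.5 FPKM in either (-0.34), above 0 in both (-0.39) and with at least 1 FPKM in both (-0.21, chosen after seeing the data). The log2 ratio of the sums (0.94) was 1.73 when rescaled to the median gene, 2.81 when rescaled to the same sum and -0.052 without RPL41P1. Detection with the IMP1 antibody (142) was 76 under that filter, 42 at 1 FPKM and 90 without overlapping copies, and with IgG (73) it was 43 without overlapping copies. The median difference from the parent (0.54) was -0.053 with a pseudocount of 1, 2.99 with 0.01, -0.39 under the 0.5 FPKM filter and -0.50 above 0 in both. The number above the parent (105) was 43 of 94, 20 of 54, 63 of 97 without overlapping copies, 27 of 52 with 1 value per parent and 14 of 30 with at least 1 FPKM in both. Fewer pseudogenes enter under each filter, and the pseudocount sets the ratio of a copy listed at 0. After rescaling to the same sum, RPS23P8 was at 0.48, RPL14P1 at 0.50, RPL21P119 at 0.29 and RPL24P4 at 0.34. The other 23 values of group results stayed within 1.5 times of the main ones, a step of 0.58 on the log2 scale for log2 values. Within that step the median difference from the parent was 0.14 with 1 value per parent and -0.04 with at least 1 FPKM in both, where its sign turned. The number above the parent was 75 of 162 with a pseudocount of 1, a minority, while the main count of 105 is a majority. A filter on the coding length of the parent was not run, because no protein table was used here. No replicate could be left out with 1 library per group. No paired analysis was possible because each group has 1 library and no test was run. The unknown depth limits what is read from values under 1 FPKM.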

Other observations

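The 7 listed genes that are paralogs of ribosomal protein genes, and not pseudogenes, went both ways. RPL39L, a paralog of RPL39 expressed in testis and some cancers, had 13.9 FPKM with the IMP1 antibody and 0.588 FPKM with IgG, and its log2 ratio was 4.35, beside -0.36 for RPL39. RPL26L1 had 12.7 and 53.2 FPKM, and RPS27L, a target of p53, had 11.8 and 64.5 FPKM, with log2 ratios of -2.05 and -2.44. RPL36AL (95.8 and 190.2 FPKM), RPL22L1 (28.5 and 43.7) and RPL7L1 (13.5 and 17.4) lay between -0.99 and -0.37, and all 3 turn positive when the IMP1 values are rescaled to the same sum over all genes, which RPL26L1 and RPS27L do not. RPL10L was listed at 0.228 FPKM with the IMP1 antibody and at 0 with IgG.

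Copies of other abundant mRNAs also differed by family. The 19 copies of EEF1A1, a translation elongation factor, summed to 129 FPKM with the IMP1 antibody and 103 FPKM with IgG, or 14.1% and 24.2% of EEF1A1, which was at 918 and 423 FPKM. The 10 copies of the ferritin heavy chain gene FTH1 summed to 3.79 and 21.3 FPKM, a log2 ratio of -2.49, beside -2.81 for FTH1 itself. Of these copies, 8 were at least 2-fold lower, beside 29.9% of all genes. When rescaled to the same sum, the log2 ratio of their sums was -0.62, with 4 lower and 1 higher, beside 13.0% and 63.7% of all genes. The 5 copies of HMGB1, a chromatin protein, summed to 7.53 and 25.96 FPKM, or 19.6% and 28.8% of HMGB1, a log2 ratio of -1.78 that turns to 0.09 when rescaled to the same sum. The 11 copies of HNRNPA1, a splicing regulator, summed to 5.88 and 10.5 FPKM, a direction that also turns under that rescaling (1.04), and the 11 copies of PPIA to 15.7 and 14.9 FPKM. Of the 14 copies of KRT18, a luminal keratin at 143 and 25.8 FPKM, 14 were above 0 with the IMP1 antibody and 0 with IgG, each copy being low, with a sum of 1.09 FPKM. The 15 copies of KRT8 summed to 2.19 and 1.26 FPKM. The copies of GAPDH, TPT1, NPM1, EIF4A1, EIF4A2, ACTB and HSPA8 each summed to at most 2.61 FPKM in either library.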
